A study of Mus musculus with 2 samples.

Results

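The lysosomal genes described here encode cathepsins and other proteases, glycosidases, lipid hydrolases, their protein cofactors and proteins of the lysosomal membrane. They form a list of 36 genes named for what their products do, and the list was drawn up with earlier results of these data known. A row for 35 of them was found among the 20330 genes of the table, and Glb1, which encodes the acid beta-galactosidase, was not analysed here. RNA came from adipose tissue macrophages (ATM), the macrophages of fat, sorted as F4/80-positive and CD11b-positive cells from visceral fat of C57BL/6 mice. The WT library was from hMRP8cre-;Hif-1αfl/fl;ApoE-/- mice and the KO library from hMRP8cre+;Hif-1αfl/fl;ApoE-/- mice, so both are labelled as carrying floxed Hif-1α and as ApoE-/-, and both had 12 weeks of high-fat diet. Cre was driven by the human MRP8 (S100A8) promoter, which is active in cells of the myeloid lineage. Each genotype had 1 library, the number of mice behind it and their age are not given in the labels, and no test between genotypes could be made.

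Lysosomes are acid compartments in which enzymes break down proteins, glycans, lipids and nucleic acids taken up from outside or delivered by autophagy. Most of the soluble enzymes are tagged with mannose 6-phosphate in the Golgi, sorted to endosomes by receptors for this tag and, for the cathepsins, cut from inactive proenzymes into active forms. Macrophages are rich in lysosomes, and in obese fat they engulf dead adipocytes and break down their lipid there.

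The sorted cells carried the markers of macrophages. Adgre1, which encodes F4/80, was at 299 FPKM (fragments scaled to transcript length and to sequencing depth) in WT, against 239 in KO. For Itgam, the gene of CD11b, both libraries gave 128. All 14 macrophage markers in the table were above 0 in both libraries, and 7 were higher and 7 lower in KO. Aif1 was at 205 FPKM in WT against 79.3 in KO, Fcgr1 at 49.3 and 21.9, and Mertk at 38.0 and 88.1. The summed level of the 14, led by C1qb and Lyz2, was 16992 FPKM in WT against 16407 in KO. Over the whole gene, Hif1a was lower in KO, with 30.4 FPKM in WT against 21.0, and Apoe was read at 94.3 in WT against 117, although both genotypes are labelled ApoE-/-. The floxed and deleted exons were not analysed here. Of the marker lists of other cells, several summed higher in KO, among them those of neutrophils and fibroblasts (197 to 572 and 49.2 to 95.3 FPKM), and their part in the levels below was not tested. The lowest recurring FPKM values put the depth at about 5.87e+06 fragments in WT and 7.47e+06 in KO. Of the lysosomal genes, Ctsf and Ctsk rested on few by this estimate. Ctsf had about 9.99 fragments in WT against 17.7 in KO, and Ctsk 21.7 and 114. The length used for Ctsf was only 460 bases, so its order against Ctsk is uncertain. The other 33 each rested on at least 114 fragments in both libraries, a figure that covers counting error only.

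It was asked how the transcripts of the lysosome differed between WT and KO ATM. The lysosomal genes as a group were at nearly the same level in both libraries. Their summed level was 15949 FPKM in WT against 14861 in KO, a KO to WT ratio of 0.93, which was 2.72% and 2.61% of all FPKM. Without Cst3, the highest of them, the sum was 13524 FPKM in WT against 11830 in KO, a ratio of 0.87. Differences of single genes are given as the change, the log2 of FPKM + 1 in KO minus that in WT. The median change of the 35 genes was -0.03, against 0.03 for the 10297 genes that reached 1 FPKM in WT, KO or both. All 35 reached it in both libraries.

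Neu1, Manba and Ctsk were past a 3-fold difference, and all of them were higher in KO. Across all genes tested 13.6% were past 3-fold higher, 13.7% were past 3-fold lower and 27.3% were past it in either direction. For the lysosomal genes this was 3 of 35, or 8.57%, with 0 lower. Neu1, the sialidase that removes terminal sialic acids, was at 10.1 FPKM in WT against 37.4 in KO, a ratio of 3.70. Manba, the beta-mannosidase that acts late in the breakdown of N-linked glycans, was at 8.82 and 31.6, a ratio of 3.58. Ctsk, the collagen-cleaving cathepsin best known from osteoclasts, was at 2.44 and 10.1, a ratio of 4.12. These genes were low in WT, where each ranked far below the abundant cathepsins. The next largest change in size was 0.90, for Gla, so that the number of genes past the threshold was 3 at 2-fold as well, where 45.6% of all genes tested were past it. Within 1.5-fold were 28 of the 35 lysosomal genes (80.0%), against 37.8% of all genes tested, most of which were less abundant. At a mean of 100 FPKM or more it was 19 of 21 lysosomal genes (90.5%) against 78.5% of all genes, and under 100 FPKM 9 of 14 (64.3%) against 34.6%.

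**Figure D1:**
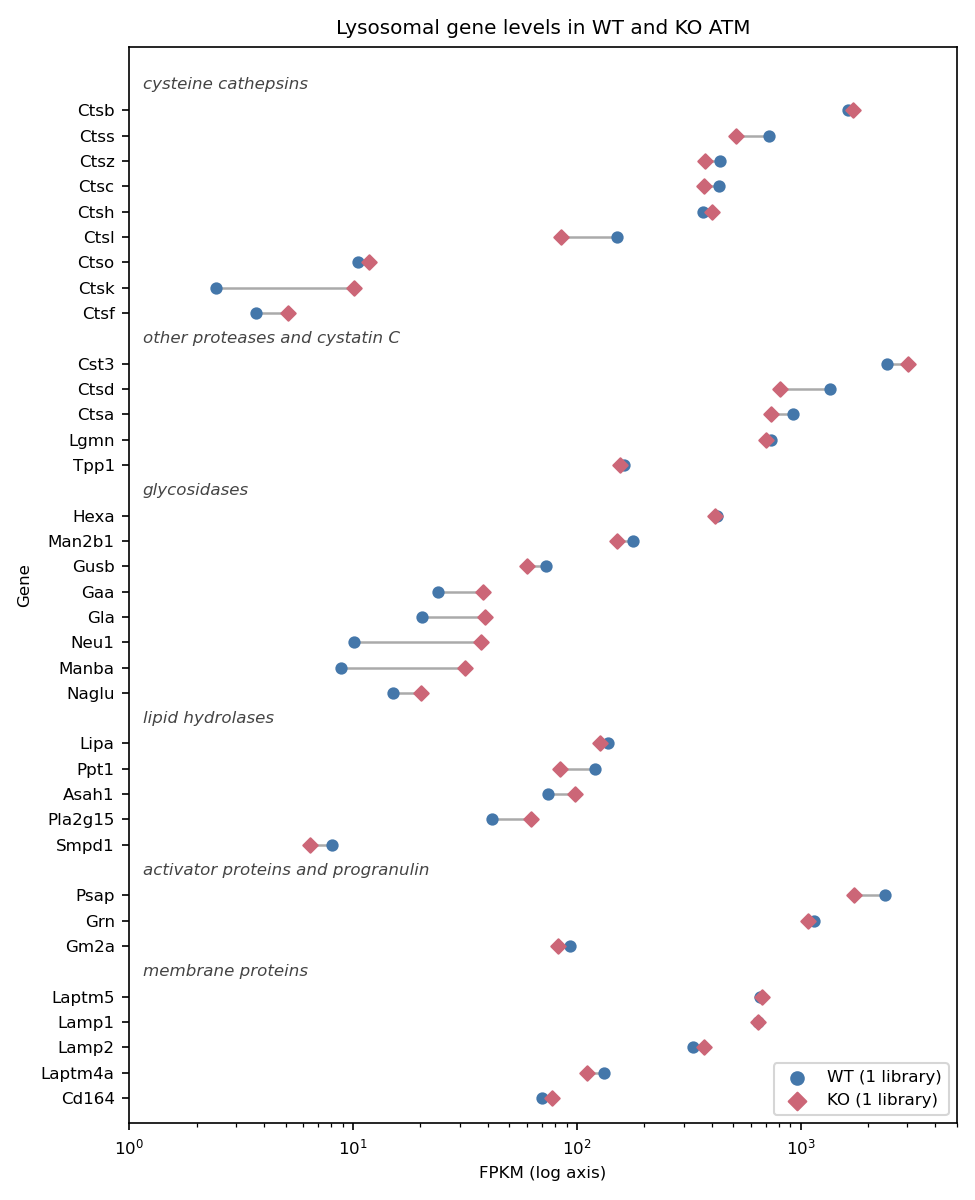
FPKM of 35 lysosomal genes on a log axis, with a circle for the WT library and a diamond for the KO library, ordered by group and then by mean level. Most pairs of symbols lie close together, and the widest gaps are those of Neu1 (10.1 and 37.4 FPKM), Manba (8.82 and 31.6) and Ctsk (2.44 and 10.1), each with KO on the right.

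The spread of changes was narrower in abundant genes than in rare ones, so each lysosomal gene was set beside all genes of its level. At a mean of 1 to 10 FPKM, 45.6% of all genes were past 3-fold and the middle 80% of changes ran from -2.43 to 2.49. The change of Ctsk, 1.68, lay inside that range. At 10 to 100 FPKM, 14.6% of genes were past 3-fold and the middle 80% ran from -1.34 to 1.31, so that Neu1 with 1.79 and Manba with 1.73 lay above it. At 100 to 1000 FPKM, 1.99% of genes were past 3-fold and the middle 80% ran from -0.65 to 0.60, and at 1000 FPKM or more 3.16% were, with a range of -0.46 to 0.34. Ctsl with -0.83 and Ctsd with -0.74 lay below the range of their level, and Psap with -0.4598 lay just at its lower end of -0.4593. The other 30 of the 35 lysosomal genes lay inside.

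**Figure D2:**
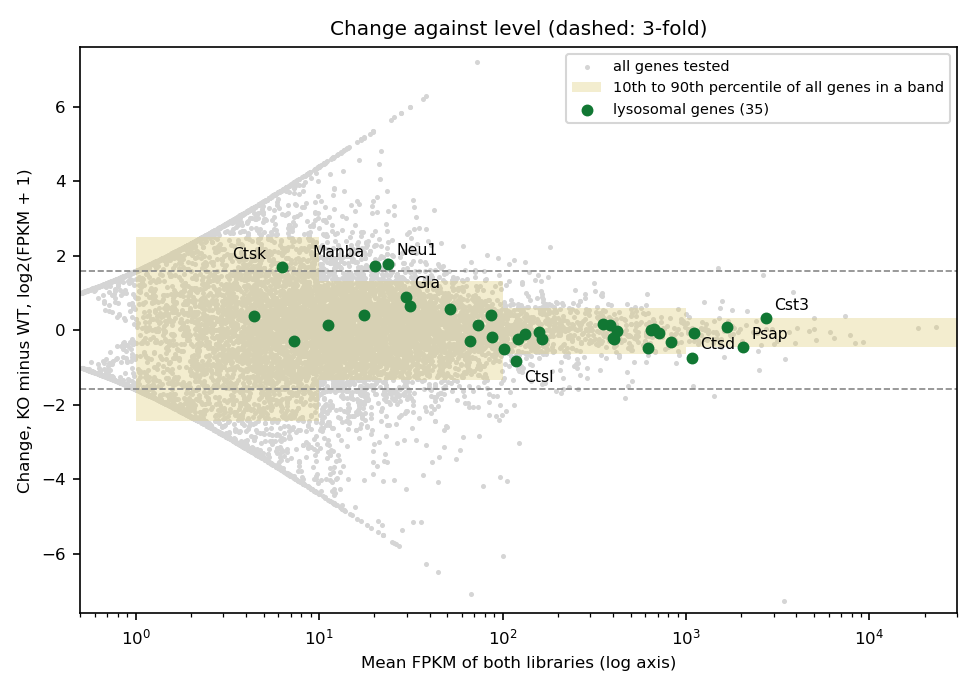
Change (KO minus WT, log2 of FPKM + 1) against the mean FPKM of both libraries on a log axis, with all genes tested in grey, the lysosomal genes in green, the middle 80% of all genes per band of level shaded, and 3-fold as dashed lines. Spread narrows with level, and Neu1 (1.79), Manba (1.73), Ctsl (-0.83) and Ctsd (-0.74) lie outside the shading of their band, with Psap (-0.46) at its edge.

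The start regions of these genes were read because many lysosomal genes carry the letters TCACGTGA or its core CACGTG, which the factor TFEB and its relatives bind, and because HIF-1 binds ACGTG and GCGTG. Promoters of 300 bases, from 250 before to 50 after the start, were found in RefSeq (GRCm38.p6) for 33 of the 36 genes, with 36 promoters in all. Both strands were searched, and each CACGTG also holds ACGTG on both strands, so ACGTG was counted only outside it. TCACGTGA was in 4 of the 36 promoters (11.1%), those of Ctsd, Ctsa, Gla and Cd164, against 0.974% of all 32851 promoters and 1.92% of those of the genes tested. CACGTG was in 11 (30.6%), against 7.15% of all promoters and 10.2% of those of genes tested. ACGTG outside CACGTG was in 3 (8.33%), against 13.6% and 17.7%, and GCGTG in 15 (41.7%), against 32.4% and 50.45%. The median GC content was 57.0% for the lysosomal genes, 52.7% for all promoters and 60.7% for those of genes tested.

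Genes with and without CACGTG had changes in both directions. The 10 measured genes with CACGTG had changes from -0.83 to 0.90, and 5 of them were higher in KO. The 22 without it had changes from -0.51 to 1.79, and 8 of them were higher. The same held for the letters bound by HIF-1, ACGTG outside CACGTG or GCGTG. The 15 genes with them had a median change of -0.07, and 7 were higher in KO. Of the 17 without them 6 were higher, with a median of -0.06. The promoters below are those of Ctsd, Ctsa and Gla, which hold TCACGTGA and differ in the direction of their change (-0.74, -0.33 and 0.90), and of the 3 genes past 3-fold. They lie at chr7:142387778-142388077 (minus strand) for Ctsd, chr2:164833523-164833822 (plus) for Ctsa, chrX:134600956-134601255 (minus) for Gla, chr17:34931003-34931302 (plus) for Neu1, chr3:135485361-135485660 (plus) for Manba and chr3:95498960-95499259 (plus) for Ctsk. Capitals mark every match, on either strand, of any of the 4 motifs searched.
Ctsd: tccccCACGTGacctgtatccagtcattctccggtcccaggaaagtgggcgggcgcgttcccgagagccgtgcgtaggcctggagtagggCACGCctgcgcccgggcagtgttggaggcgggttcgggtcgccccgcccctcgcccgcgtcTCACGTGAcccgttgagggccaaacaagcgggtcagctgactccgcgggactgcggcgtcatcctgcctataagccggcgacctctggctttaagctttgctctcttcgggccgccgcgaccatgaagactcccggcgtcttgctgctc
Ctsa: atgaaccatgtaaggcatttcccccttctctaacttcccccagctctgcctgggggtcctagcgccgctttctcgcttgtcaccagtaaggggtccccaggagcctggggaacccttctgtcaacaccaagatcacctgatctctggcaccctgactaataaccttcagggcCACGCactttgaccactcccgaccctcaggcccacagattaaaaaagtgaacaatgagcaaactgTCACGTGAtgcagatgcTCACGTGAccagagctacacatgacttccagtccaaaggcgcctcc
Gla: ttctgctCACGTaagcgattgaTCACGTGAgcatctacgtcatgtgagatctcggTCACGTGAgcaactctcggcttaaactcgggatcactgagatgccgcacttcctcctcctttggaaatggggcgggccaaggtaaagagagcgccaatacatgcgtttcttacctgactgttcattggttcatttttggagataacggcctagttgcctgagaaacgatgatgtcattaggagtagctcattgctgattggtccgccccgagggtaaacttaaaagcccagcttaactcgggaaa
Neu1: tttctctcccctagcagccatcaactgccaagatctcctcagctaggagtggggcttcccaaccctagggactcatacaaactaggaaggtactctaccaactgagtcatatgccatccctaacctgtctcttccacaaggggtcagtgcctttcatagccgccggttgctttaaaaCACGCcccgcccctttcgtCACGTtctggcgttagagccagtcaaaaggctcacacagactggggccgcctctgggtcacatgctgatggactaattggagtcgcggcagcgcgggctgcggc
Manba: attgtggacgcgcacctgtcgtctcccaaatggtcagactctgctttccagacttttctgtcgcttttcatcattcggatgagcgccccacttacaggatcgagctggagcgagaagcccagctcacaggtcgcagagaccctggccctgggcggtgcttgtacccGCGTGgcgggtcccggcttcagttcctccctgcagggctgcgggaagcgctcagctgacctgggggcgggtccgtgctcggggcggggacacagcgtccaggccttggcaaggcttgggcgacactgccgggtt
Ctsk: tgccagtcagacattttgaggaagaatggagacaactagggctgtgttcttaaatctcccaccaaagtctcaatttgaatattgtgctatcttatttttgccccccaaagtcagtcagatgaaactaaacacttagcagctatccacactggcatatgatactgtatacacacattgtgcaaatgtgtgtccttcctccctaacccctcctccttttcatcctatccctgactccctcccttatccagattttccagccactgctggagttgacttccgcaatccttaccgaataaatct

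TCACGTGA begins 99 bases before the start of Ctsd, 13 bases before the printed start of Ctsa with another match 4 bases after it, and 228 and 195 bases before that of Gla. Another promoter of Ctsa, at chr2:164832622-164832921, holds neither TCACGTGA nor CACGTG, but 1 ACGTG and 1 GCGTG. Neu1 holds 1 match of GCGTG and 1 of ACGTG, both read on the minus strand, 73 and 54 bases before its start. Manba holds 1 GCGTG, 84 bases before its start, and Ctsk holds none of these letters in the window. A match is a run of letters only, and binding was not measured.

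The cysteine cathepsins, papain-like proteases that degrade proteins in the lysosome, were compared next. Of the 9 genes 5 were higher and 4 lower in KO, with a median change of 0.07. Ctsb, the most abundant of them, was at 1632 FPKM in WT against 1718 in KO. Ctss, which trims the invariant chain so that MHC class II can load peptide, was lower in KO, at 721 FPKM in WT against 517 in KO. Ctsl, an endopeptidase of broad specificity, was at 151 and 84.9, and its change of -0.83 was the lowest of the 35 genes. Ctsz, a carboxypeptidase, was at 437 and 375, and Ctsc, which activates granule serine proteases by removing dipeptides, at 431 and 372. Ctsh, an aminopeptidase, was slightly higher in KO, at 365 FPKM in WT against 402 in KO. Of these 6 abundant cysteine cathepsins 4 were lower and 2 higher in KO, and none was past 2-fold. Among all genes, 7.81% at 100 to 1000 FPKM and 7.37% at 1000 FPKM or more were past 2-fold. Ctso (10.6 and 11.8 FPKM) and Ctsf (3.70 and 5.15) were low in both libraries, and Ctsk was the only gene of this group past 3-fold. That was 11.1% of the group, against 27.3% of all genes tested and 45.6% of those at 1 to 10 FPKM, the level of Ctsk.

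Levels of Ctsk were read beside markers of cells other than macrophages that express it. Of the 7 fibroblast markers 6 passed the filter and were higher in KO, among them Dpt at 5.99 FPKM in WT, against 11.1 in KO. Col1a2 and Pdgfra passed it only through KO, so their direction was fixed by the filter. None of the 7 was at 0 in KO, and 1, Lum, was at 0 in WT. The 6 osteoclast markers other than Ctsk summed to 54.2 FPKM in WT against 51.2 in KO, but single markers went both ways. Acp5 was at 25.8 FPKM in WT against 35.3 in KO, and Ocstamp at 0 and 1.28. Lower in KO were Atp6v0d2, at 18.8 and 8.63, and Dcstamp, at 9.59 and 6.00. Calcr and Oscar were at 0 in both libraries. The part of other cells in the level of Ctsk was not tested. In a bulk sample, a change in the number of cells of a type and a change in RNA per cell cannot be told apart.

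Proteases of other classes and the cathepsin inhibitor cystatin C followed. Cst3, which encodes cystatin C, was the highest of the 35 genes in both libraries, at 2424.5 FPKM in WT against 3031 in KO. It was the 27th gene of the table in WT and the 18th in KO. Ctsd, the main aspartic protease of the lysosome, was at 1347 FPKM in WT against 808 in KO, a WT to KO ratio of 1.67. Ctsa, a serine carboxypeptidase that also shields Neu1 and Glb1 from degradation in a shared complex, was at 928 and 738. Lgmn, the asparaginyl endopeptidase that processes cathepsins, was at 734 and 698, and Tpp1, a tripeptidyl peptidase, at 162 and 156. Cst3 was thus the only gene of these 5 that was higher in KO, and their median change was -0.07. Of the complex partners, Ctsa was lower and Neu1 higher in KO, so that the ratio of Ctsa to Neu1 was 91.8 in WT and 19.8 in KO.

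The glycosidases, which cut sugars from glycoproteins, glycolipids and glycosaminoglycans, had the highest median change of the groups, 0.52, with 5 of 8 higher in KO (62.5%, against 51.3% of all genes tested). Past 3-fold were 2 of the 8 (25%), against 27.3% of all genes tested. Those that were higher were the less abundant ones. Besides Neu1 and Manba these were Gla, Gaa and Naglu. Gla, the alpha-galactosidase missing in Fabry disease, was at 20.4 FPKM in WT against 38.9 in KO. Gaa, the acid alpha-glucosidase that degrades glycogen, was at 24.1 and 38.2. Naglu, which acts on heparan sulfate, was at 15.0 and 20.1. The more abundant glycosidases were all lower in KO, by small amounts. Hexa, the alpha subunit of beta-hexosaminidase, was at 424 FPKM in WT against 414 in KO, Man2b1, an alpha-mannosidase, at 178 and 152, and Gusb, the beta-glucuronidase, at 72.8 and 59.8. The median of this group was between 0.49 and 0.56 under all scalings, pseudocounts and filters tried.

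The lipid hydrolases were all within 1.5-fold, against 37.8% of all genes tested. That share was 78.5% at a mean of 100 FPKM or more, the level of Lipa and Ppt1, and 34.6% under it. Pla2g15, with a ratio of 1.49, was close to the limit. Lipa, the acid lipase that frees cholesterol and fatty acids from esters taken up by macrophages, was at 138 FPKM in WT against 128 in KO. Ppt1, which removes palmitate from proteins, was at 120.3 and 84.4. Asah1, the acid ceramidase, was at 74.3 and 98.6. Of the 5 genes, Asah1 and the phospholipase Pla2g15 (41.7 and 62.2 FPKM) were higher in KO, and Smpd1, the acid sphingomyelinase, was low in both libraries, at 8.06 and 6.45. The median change was -0.11.

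The activator proteins, which present lipids to the hydrolases, and progranulin were all lower in KO. Psap, the precursor of the 4 saposins, was at 2382 FPKM in WT against 1732 in KO and was the second highest of the 35 genes by mean level. Grn, which encodes progranulin, a secreted protein that also supports lysosomal enzymes, was at 1146 and 1078. Gm2a, which lifts GM2 ganglioside to beta-hexosaminidase, was at 93.4 and 82.5. The 3 genes summed to 3621 FPKM in WT against 2892 in KO, a ratio of 0.80, most of it from Psap.

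The membrane proteins differed little between the libraries, with changes from -0.25 to 0.16. Lamp1 and Lamp2, heavily glycosylated proteins that line the lysosomal membrane, were at 648 and 332 FPKM in WT and at 645 and 369 in KO. Laptm5, a transmembrane protein of blood cells, was at 660.0 and 671, and Laptm4a, its more widely expressed relative, at 132 and 111. Cd164, a sialomucin found on endosomes and lysosomes, was at 70.3 and 77.4. Neither direction prevailed, with 3 genes higher and 2 lower in KO.

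**Figure D3:**
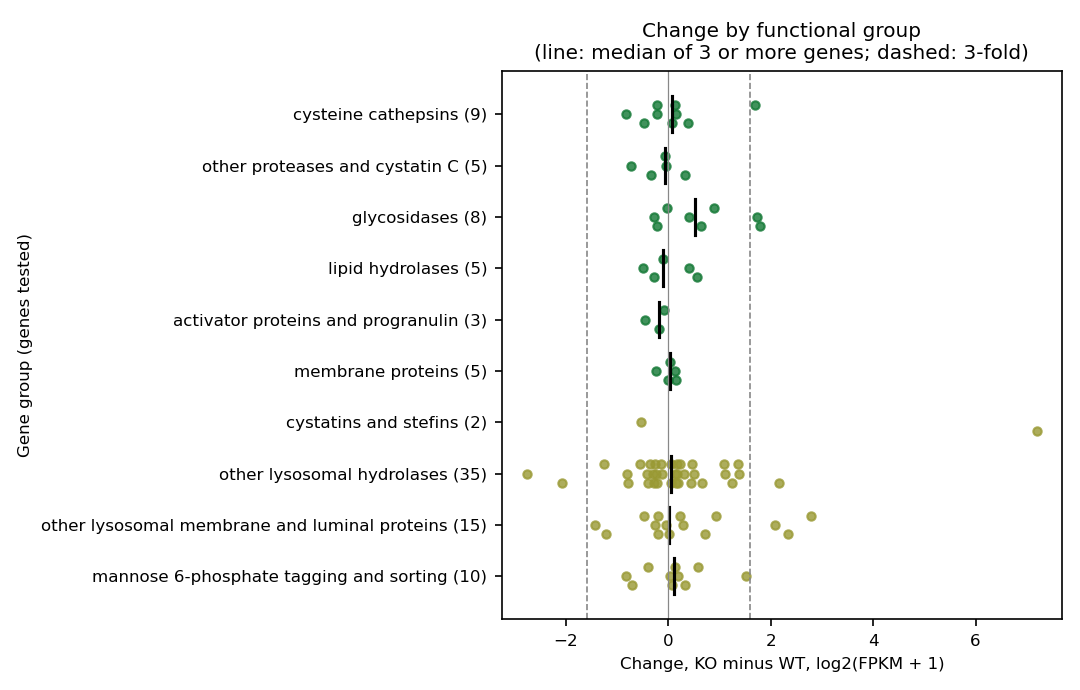
Change (KO minus WT, log2 of FPKM + 1) of each gene by functional group, in dark green for the 35 lysosomal genes and in olive for other genes of the lysosome that passed the filter, with the median of groups of 3 or more genes as a black line and 3-fold as dashed lines. The glycosidases have the highest median of the dark green groups (0.52), and the membrane proteins lie on both sides of 0, from -0.25 to 0.16.

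Level and direction went together among these genes. Of the 21 genes at a mean of 100 FPKM or more, 16 were lower in KO, with a median change of -0.11. Of the 14 under 100 FPKM, 11 were higher, with a median of 0.40. Over all genes tested, 48.5% were higher at 100 FPKM or more and 51.5% under it. The split at 100 FPKM was made after the values had been seen. Under the scalings, pseudocounts and filters tried, the counts were 14 to 17 of the abundant genes lower and 10 to 11 of the others higher. Across the 35 genes Spearman's rho of the change with the mean level was -0.46, and with transcript length 0.05. Over all genes tested these were -0.03 and 0.05, and genes of the same libraries are not independent replicates.

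Within the lysosomal transcripts the leading genes differed in their shares. By mean level the 5 highest genes held 56.0% of the total in WT, against 56.3% in KO. Psap and Cst3 took nearly equal shares in WT, 14.9% and 15.2%, whereas in KO Cst3 took 20.4% and Psap 11.7%. Ctsb took 10.2% in WT and 11.6% in KO, and Ctsd 8.45% and 5.43%. The order of all 35 genes was nevertheless close in both libraries, with Spearman's rho of 0.99 across genes.

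**Figure D4:**
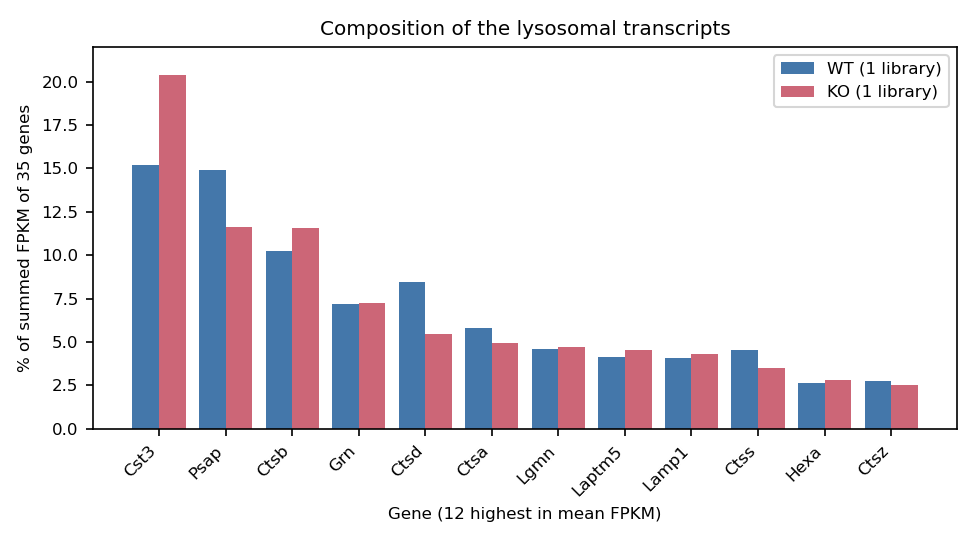
Share of the summed FPKM of 35 lysosomal genes taken by each of the 12 highest, in percent, with a bar for the WT library and a bar for the KO library. Cst3 stands at 15.2% in WT and 20.4% in KO, Psap at 14.9% and 11.7%, and Ctsd at 8.45% and 5.43%.

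Other genes of the lysosome were then examined from a list of 86, of which 83 were in the table and 62 passed the filter. Some passed only through the library in which they were high, so the counts describe the list and no more. Of the 62, 35 were higher and 27 lower in KO, with a median change of 0.06, and 5 were past 3-fold higher and 2 past 3-fold lower. These 7 were 11.3% of the 62, against 27.3% of all genes tested. Of these 7 genes, 4 were listed at 0 in a library, and no fold is given for them. Hyal1 (a hyaluronidase), Mfsd8 (a membrane transporter) and Stfa2l1 were at 0 in WT and at 3.48, 3.25 and 145 FPKM in KO, and Aga (the aspartylglucosaminidase) was at 5.76 in WT and 0 in KO. The other 3 were above 1 FPKM in both libraries. Sgsh, the sulfamidase of heparan sulfate breakdown, was lower in KO, at 23.8 FPKM in WT against 4.85 in KO. Tmem192, a lysosomal membrane protein, was at 14.5 and 77.4, and Laptm4b, a relative of Laptm4a, at 1.01 and 12.9. In WT, Laptm4b rested on an estimated 3.77 fragments and Tmem192 on 95.3.

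Other hydrolases gave the same picture of small differences in abundant genes. Lyz2, the lysozyme of macrophages, was the highest of 35 that passed the filter, at 3936 FPKM in WT against 4080 in KO, and the median change of these was 0.05. Of the further membrane and luminal proteins, Cd63 was the highest, at 314 and 366. Gpnmb, a membrane protein of lipid-laden macrophages, was at 76.4 and 27.7, a change of -1.43, and Mcoln1, the calcium channel of the lysosome, at 46.3 and 19.3, a change of -1.22. Neither was past 3-fold. The 10 genes of mannose 6-phosphate tagging and sorting had a median change of 0.10. Past 3-fold were 0 of them, against 27.3% of all genes tested, 14.6% at 10 to 100 FPKM and 45.6% at 1 to 10 FPKM. Gga1, an adaptor carrying the receptors from the Golgi, was highest of the 10 by mean level, at 47.7 FPKM in WT against 52.6 in KO. M6pr, the cation-dependent receptor of the tag, was at 42.8 and 53.6. Nagpa, the enzyme that uncovers the tag, was at 13.2 and 39.7. Its ratio of plain FPKM was 3.001, but with the pseudocount its change of 1.52 fell short of the threshold.

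Cathepsins of other lineages and the inhibitors were examined last. The 11 other cathepsins were the neutrophil protease Ctsg, the lymphocyte protease Ctsw, Ctse, Ctsj, Ctsm, Ctsq, Ctsr, Cts3, Cts6, Cts7 and Cts8. Of these, 0 reached 1 FPKM in either library and 10 were at 0 in both. Cstb, the cytosolic inhibitor of cathepsins, was at 595 FPKM in WT against 409 in KO. Stfa2l1, a stefin, was at 0 in WT and 145 in KO, and the other 4 listed stefin A genes were at 0 in both libraries. The stefin A genes are near-identical copies among which reads can be divided wrongly, and the division of reads was not tested. Of the 13 neutrophil markers, 12 were in the table and 8 passed the filter and were higher in KO, of which S100a9 was the highest by mean level, at 63.4 FPKM in WT against 301 in KO, and S100a8 was at 73.3 and 182. Retnlg, Ngp and Mpo passed it only through KO, so their direction was fixed by the filter. Camp, Ltf, Elane and Mmp8 were at 0 in both libraries. The part of neutrophil RNA in the levels of the stefin or of the lysosomal genes was not tested.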

How the data were processed

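RNA sequencing of 1 WT and 1 KO library of sorted ATM was analysed. Per the labels, poly(A) RNA was primed with random hexamers. The authors deposited FPKM values, already divided by transcript length and library size. The submitters' processing notes name CASAVA 1.8.2, TopHat2 2.0.9, Cufflinks 2.2.1 and mm9. The annotation, filters and pooling are not given in the sources used here. The mutant column was assigned to KO, the only Cre-positive sample.

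Of 20749 rows, 401 exact repeats were dropped and 18 further rows of an identifier already present were summed. Symbols were found in GENCODE M21 for 20035 of 20330 genes. Changes were taken on log2(FPKM + 1), which understates those of low genes. Genes had to reach 1 FPKM in WT, KO or both, and the threshold was 3-fold, as in the study's own gene lists. With 1 library per genotype no p-value was computed. The code that made the calls was tested on simulated data, which bears on the code alone. Depth came from the smallest recurring FPKM x kb in genes with 1 transcript, 0.17 in WT and 0.13 in KO, with lengths from GENCODE M21 on GRCm38. For estimated fragments, the length of a gene was the median over all its protein-coding transcripts, short ones included. Estimated fragments are thus approximate, and are too low where this length is too short.

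All genes of the main list that were in the table were named. The other lysosomal genes were named if past 3-fold with at least 1 FPKM in both libraries or highest of their list. M6pr, Gpnmb, Mcoln1, Nagpa and those at 0 were chosen after their values were seen. The members and lists were chosen with earlier results of these data known. Alternatives were pseudocounts of 0.1 and 0.01, 3 filters, 3 scalings and a 2-fold threshold. Python 3.11.15, pandas 2.3.3 and scipy 1.17.1 were used.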

Additional observations from a re-analysis of the deposited data

How the results depend on the processing

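Neu1, Manba and Ctsk were the 3 lysosomal genes past the threshold under all 9 alternatives, and 0 were past it lower. The median change of the lysosomal genes lay between -0.07 and 0.01, and 15 to 18 were higher in KO. A filter leaves the change of a single gene as it is, and a scaling shifts all genes by nearly the same amount. The count of single genes that moved therefore says little about how steady a gene is. Of 279 changes of single genes recomputed, 0 moved by more than 1.5-fold, the allowance used because no replicate spread exists. The sign differed in 4, for Hexa, Lamp1 and Laptm5, whose changes were at most 0.03 in size. Of the 86 other lysosomal genes, 5 higher and 2 lower past 3-fold became 2 and 1 where both libraries had to reach 1 FPKM and 3 and 1 where the mean had to reach 5, both of which test fewer genes. They became 11 and 5 at 2-fold. The share of all genes past the threshold, 27.3%, was 36.4% and 37.0% with pseudocounts of 0.1 and 0.01, 13.9% with no filter, 11.6% where both libraries had to reach 1 FPKM, 18.1% where the mean had to reach 5 and 45.6% at 2-fold. No paired analysis was possible because only 1 library was made per genotype. Exons of 9 of the 35 genes overlap another gene in GENCODE M21, 7 of them on the opposite strand only, and no strand marking is described. These include Ctsd, Ctsl, Ctsa, Ctsb and Lamp1, but 0 of the 3 genes past 3-fold.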

Other observations

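Some ratios between lysosomal transcripts were computed within each library, and the pairs were chosen after their values were seen. Cst3 was at 0.646 times the summed FPKM of the 9 cysteine cathepsins in WT and 0.867 times in KO. With Cstb, which was lower in KO, added to Cst3 the ratio was 0.804 in WT and 0.985 in KO. Ctsb was at 1.21 times the level of Ctsd in WT and 2.13 times in KO, and at 10.8 and 20.2 times the level of Ctsl. These are ratios of transcript levels per length in single libraries, with no replicate spread, and protein or activity was not measured.

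Several hydrolases outside the main list were between 2-fold and 3-fold higher in KO, all of them at 10 to 100 FPKM by mean except Ctbs. They were chosen after their values were seen. Dpp7, a dipeptidyl peptidase, was at 44.8 FPKM in WT against 118 in KO, and Dnase2a, the nuclease that degrades DNA of engulfed cells, at 35.2 and 92.1. Cpq, a carboxypeptidase, was at 15.2 and 33.2, Idua, the iduronidase, at 6.70 and 15.6, and Ctbs, a chitobiase, at 3.67 and 10.1. Hyal2, a hyaluronidase, went the other way, at 23.5 and 9.26. At 10 to 100 FPKM 30.4% of all genes were past 2-fold, and at 1 to 10 FPKM, the level of Ctbs, 60.6% were.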
